A study of Mus musculus with 16 samples.

Results

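TIGIT, CD226 and CD96 are receptors of cytotoxic lymphocytes that share ligands of the nectin family, and their genes Tigit, Cd226 and Cd96 were followed here across 4 sorted subsets of CD8 T cells. Each of the 3 genes has 1 probe set annotated to it alone (17330478 for Tigit, 17352330 for Cd226 and 17330751 for Cd96), and they are 3 of the 22180 genes so represented on the array. The cells came from spleens of female C57BL/6 mice 6 weeks after transfer of murine chronic lymphocytic leukemia (CLL) cells from Eµ-TCL1 mice, in which a TCL1 transgene drives B-cell leukemia, and every subset, naive cells included, comes from such leukemic mice. The growth protocol names the strain C57BL/6, while the strain tag reads C56BL/6. All cells were sorted as Lin- TCRb+ CD8+. PD-1hi effectors were CD127low CD44int-hi PD-1hi, PD-1int effectors were CD127low CD44int-hi PD-1int, memory cells were CD127hi CD44hi and naive cells were CD127hi CD44low. CD127 is the interleukin 7 receptor chain, CD44 an adhesion receptor that marks antigen-experienced cells, and PD-1 an inhibitory receptor. The gates used none of the 3 receptors. Each subset was measured on 4 arrays. The labels number these AT1 to AT4 in every subset, called replicates 1 to 4 here, without saying which mouse each came from. The spread between arrays may therefore be partly technical, and the p-values refer to that spread alone.

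TIGIT and CD226 compete for the same ligands on other cells, CD155 (encoded by Pvr) and CD112 (encoded by Nectin2). CD226, also called DNAM-1, is an activating receptor that works with the integrin LFA-1 and is phosphorylated by the kinase FYN, whereas TIGIT carries inhibitory tyrosine motifs in its tail, binds CD155 more tightly than CD226 does and can interfere with pairing of CD226 molecules in the membrane. CD96 also binds CD155, and in mice nectin-1 as well; it restrains mouse natural killer cells, while its part in CD8 T cells is less settled. The balance of TIGIT and CD226 is studied as a checkpoint of T cells under lasting antigen exposure, which gives the comparison of the sorted subsets its interest.

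The deposited values are taken as log2 expression: the sources used here name no log base, which was read from the range of the values (2.347 to 14.125). A difference of 1 is then a doubling of signal, and every fold given rests on that reading. The array medians lay between 6.39 and 6.49, no 2 arrays were identical, and the median standard error of a difference between subsets was 0.104. Il7r, which encodes CD127, and Pdcd1, which encodes PD-1, followed the gates: Il7r averaged 4.91 in PD-1hi, 7.49 in PD-1int, 12.57 in memory and 12.97 in naive cells, and Pdcd1 averaged 11.40, 10.12, 7.10 and 6.80 in the same subsets. Cd44 averaged 7.93, 8.69, 8.99 and 6.07, so that the effector subsets, both gated as CD44int-hi, differed in it: PD-1hi fell by -0.76 ± 0.10 against PD-1int (limma adjusted p = 2.41e-04), and by -1.06 ± 0.10 against memory. The subsets are compared below with limma over all genes, and rose, fell and changed are used where the Benjamini-Hochberg adjusted p of a gene was under 0.05. The 3 comparisons against naive share the naive arrays, and those against memory share the memory arrays.

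Of the 3 receptor genes, 3 passed in PD-1hi against naive, where 27.1% of all genes did, and 2 in PD-1int against naive, where 22.7% did. In memory against naive 2 passed, beside 11.7% of all genes. Against memory all 3 passed in PD-1hi (21.9% of all genes) and in PD-1int (16.2%), and 2 passed in PD-1hi against PD-1int (3.31%). The arrays of the compared subsets did not overlap for 3 receptor genes in PD-1hi against naive (25.9% of all genes), 2 in PD-1int against naive (23.6%), 3 in memory against naive (15.7%), 3 in PD-1hi against memory (23.9%), 3 in PD-1int against memory (20.6%) and 1 in PD-1hi against PD-1int (8.89%).

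Tigit, the inhibitory receptor gene, was highest in PD-1hi, followed by PD-1int, memory and naive cells. Its log2 values were 11.63, 11.60, 11.62 and 11.76 in PD-1hi replicates 1 to 4, and 10.78, 10.79, 11.04 and 10.84 in PD-1int. They were 7.42, 7.01, 7.16 and 7.45 in memory, and 4.96, 5.15, 4.76 and 5.12 in naive cells. No array of a subset reached the range of a neighbouring subset, so the order PD-1hi, PD-1int, memory, naive held for all 16 arrays. PD-1hi exceeded naive by 6.66 ± 0.11 (log2 difference ± SE, n = 4 arrays per subset), a 101-fold difference, and only 1 of the 22180 genes had a larger rise there (limma adjusted p = 1.08e-17). PD-1int exceeded naive by 5.86 ± 0.11 and ranked 3 among all genes by size of rise. Memory exceeded naive by 2.26 ± 0.11, or 4.80-fold, and ranked 55 (limma adjusted p = 6.69e-11).

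Above memory, Tigit was higher by 4.39 ± 0.11 in PD-1hi and by 3.60 ± 0.11 in PD-1int, 21.0-fold and 12.1-fold. The step between the effector subsets was the smallest, 0.79 ± 0.11 or 1.73-fold in PD-1hi over PD-1int (95% confidence interval 0.56 to 1.02, limma adjusted p = 2.75e-04). Tigit therefore passed in all 6 comparisons. The naive mean of 4.998 lay low on the scale, with 16.4% of genes having a lower naive mean, and the files give no detection call; where a transcript is near background the log2 difference understates the change. Every alternative fit tried kept all 6 Tigit calls.

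**Figure D1:**
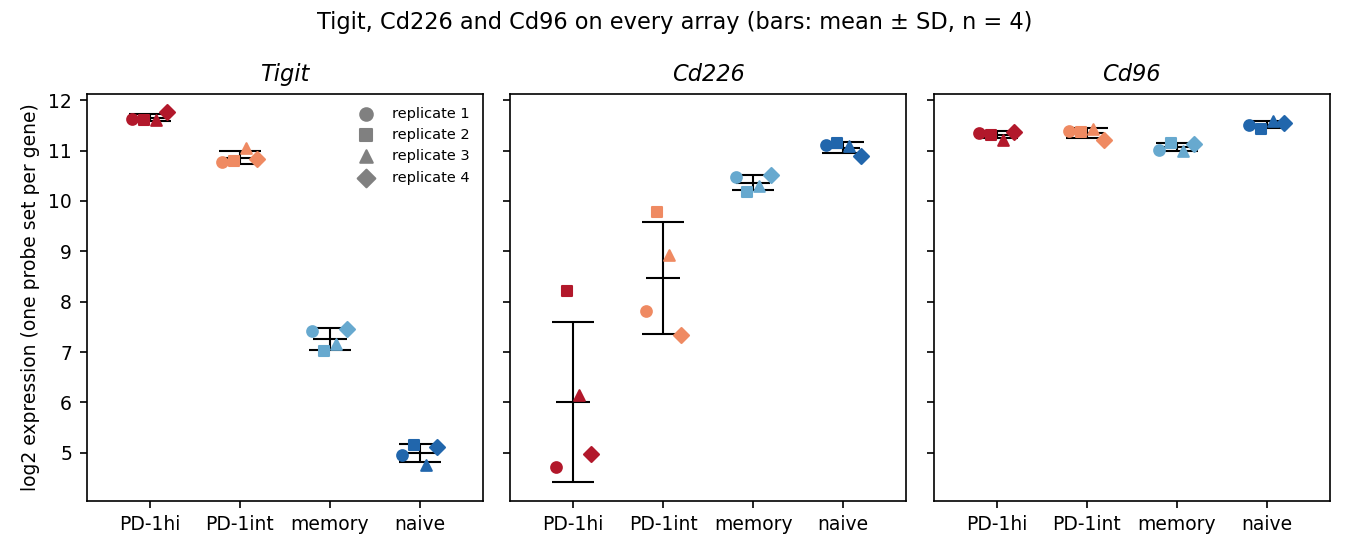
Log2 expression of Tigit, Cd226 and Cd96 (y axis) on each of the 16 arrays, by subset (x axis); marker shapes give the replicate number, and the bars the mean and SD of 4 arrays. Tigit fills 4 separate bands, Cd226 spreads widely in PD-1hi and PD-1int alone (SD 1.59 and 1.10), and Cd96 stays between 10.99 and 11.58 on all arrays.

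Cd226, which encodes the activating receptor, ran the opposite way. Its log2 values were 4.72, 8.20, 6.14 and 4.97 in PD-1hi replicates 1 to 4, and 7.81, 9.79, 8.94 and 7.34 in PD-1int. They were 10.47, 10.19, 10.30 and 10.51 in memory, and 11.11, 11.14, 11.09 and 10.89 in naive cells. All 8 effector arrays lay below all 8 memory and naive arrays, while PD-1hi replicate 2 reached above 2 of the PD-1int arrays. PD-1hi was below naive by a log2 difference of -5.05 ± 0.58 (SE, n = 4 arrays per subset), 33.1-fold, and only 2 genes had a larger fall (limma adjusted p = 1.59e-06). PD-1hi replicates 1 and 4 lay as low on the scale as Tigit in naive cells, where a log2 difference can understate the change, so this fold and rank are those of the fitted values only. PD-1int fell against naive as well, by -2.59 ± 0.58 or 6.02-fold (limma adjusted p = 0.00241). The standard error of Cd226 is shared by all subsets, although its SD was 1.59 in PD-1hi and 0.11 in naive cells. For comparisons with PD-1hi, the most widely spread subset, it is therefore likely too small and the p-values too low. In bulk RNA, fewer cells carrying a transcript and less of it per cell cannot be told apart.

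Against memory, Cd226 fell in PD-1hi by -4.36 ± 0.58, 20.5-fold (limma adjusted p = 1.41e-05), and in PD-1int by -1.90 ± 0.58, 3.72-fold (limma adjusted p = 0.0296). PD-1hi was also below PD-1int, by -2.46 ± 0.58 or 5.50-fold, the 4th largest fall of that comparison (limma adjusted p = 0.0227). These last 2 calls depended on the arrays and settings. PD-1hi against PD-1int missed the threshold without PD-1int replicate 2 (limma adjusted p = 0.0745) or 3 (0.0676) and without PD-1hi replicate 1 (0.0797) or 4 (0.085), in a fit of those 8 arrays alone (0.127) and with trend and robust settings (0.0716). PD-1int against memory missed it without any 1 memory array (0.0646, 0.0522, 0.059 and 0.0665 for replicates 1 to 4), without PD-1int replicate 1 (0.0869) or 4 (0.113), and with trend and robust settings (0.0811).

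Memory and naive cells differed less from each other in Cd226 than either did from the effector subsets. The means were 10.36 ± 0.15 in memory and 11.06 ± 0.11 in naive cells (SD, n = 4), and no memory array reached the naive range. The log2 difference of -0.69 ± 0.58 did not pass in the fit of all 16 arrays (limma adjusted p = 0.568), whose standard error for this gene is shared with the widely spread effector arrays. In a fit of the 8 memory and naive arrays alone it passed, with a limma adjusted p of 7.35e-04.

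The effector subsets stood apart in how much Cd226 varied from array to array. Its SD over 4 arrays was 1.59 in PD-1hi, exceeded by only 3 of 22180 genes, and 1.10 in PD-1int, exceeded by 11, against 0.15 in memory and 0.11 in naive cells, where 35.8% and 65.6% of genes had a larger SD. The median SD of all genes was 0.135 in PD-1hi and 0.131 in PD-1int. In PD-1hi and in PD-1int alike, replicate 2 had the highest Cd226 value and replicate 3 the next, with replicates 1 and 4 below. Taken by number, PD-1hi was below PD-1int by -3.10, -1.58, -2.79 and -2.37 for replicates 1 to 4, so that 4 of 4 numbers had the same direction. Whether arrays of a number share a mouse is not stated.

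Of the genes behind the gates, Il7r was also highest in replicate 2 of both effector subsets. It had 4.48, 5.67, 4.60 and 4.90 in PD-1hi replicates 1 to 4, and 7.57, 7.91, 7.14 and 7.35 in PD-1int. Pdcd1 had 11.52, 11.47, 11.18 and 11.44 in PD-1hi, and 10.42, 9.96, 9.75 and 10.32 in PD-1int, and its lowest array was replicate 3 in each. The Il7r arrays thus spanned 1.19 in PD-1hi, against a span of 3.48 for Cd226 on the same arrays. Their part in the Cd226 spread was not tested.

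Cd96 changed little in any comparison. Its log2 values were 11.35, 11.32, 11.22 and 11.36 in PD-1hi replicates 1 to 4, and 11.39, 11.36, 11.42 and 11.20 in PD-1int. They were 11.02, 11.15, 10.99 and 11.13 in memory, and 11.51, 11.42, 11.58 and 11.54 in naive cells. Memory was lowest, with no array in the range of any other subset, and naive had the highest mean. Memory fell against naive by -0.44 ± 0.07 (SE, n = 4), a ratio of 0.736 (limma adjusted p = 3.81e-04). Against memory, Cd96 rose by 0.24 ± 0.07 in PD-1hi (limma adjusted p = 0.0215) and by 0.27 ± 0.07 in PD-1int (0.0138).

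The effector subsets did not separate from each other in Cd96. PD-1hi minus PD-1int was -0.03 ± 0.07, with a 95% confidence interval of -0.18 to 0.12 (limma adjusted p = 0.916). Against naive, PD-1int did not pass (-0.17 ± 0.07, limma adjusted p = 0.115) and PD-1hi passed narrowly (-0.20 ± 0.07, limma adjusted p = 0.0498). The PD-1hi call was lost in 14 of 16 fits that left out 1 array, all except those without naive replicate 2 or PD-1int replicate 4, with an adjusted p of up to 0.143 (without PD-1hi replicate 3). The rise of PD-1hi over memory missed the threshold without memory replicate 1 (limma adjusted p = 0.064) or 3 (0.0692) or PD-1hi replicate 1 (0.0554) or 4 (0.0611), and that of PD-1int over memory without PD-1int replicate 3 (0.0501).

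**Figure D2:**
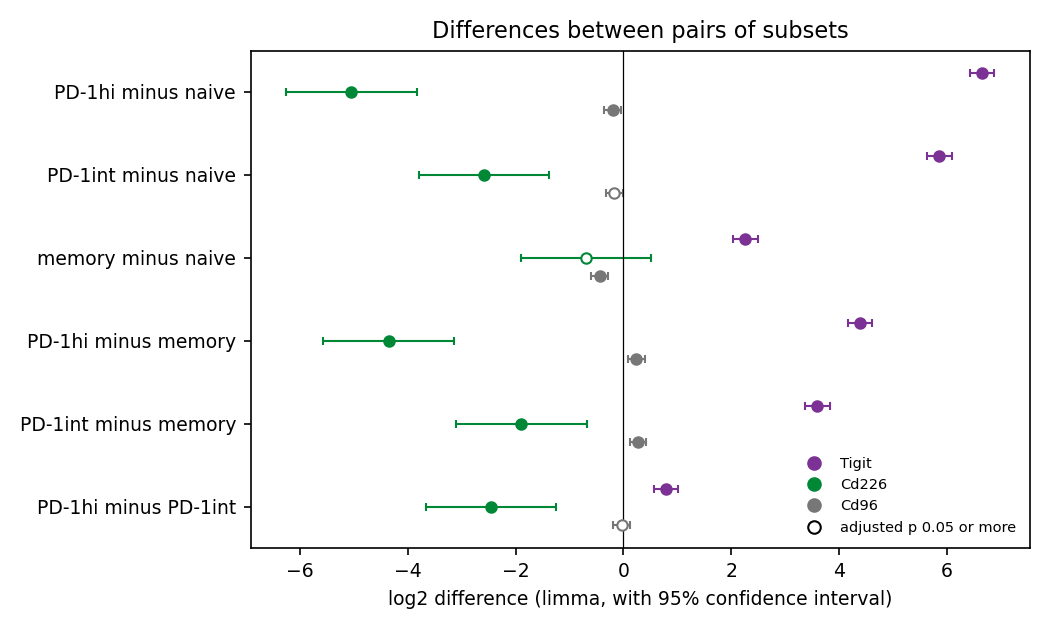
Log2 differences (x axis) of Tigit, Cd226 and Cd96 for the 6 pairs of subsets (y axis), with 95% confidence intervals from limma; open circles mark an adjusted p of 0.05 or more. Tigit lies right of 0 in every row, Cd226 left of 0, and Cd96 within 0.45 of it.

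The shift between the inhibitory and the activating receptor can be read within each array, where any array-wide effect cancels. Tigit minus Cd226 was 6.91, 3.40, 5.47 and 6.80 in PD-1hi replicates 1 to 4, and 2.96, 1.00, 2.11 and 3.50 in PD-1int. It was -3.05, -3.17, -3.14 and -3.06 in memory, and -6.15, -5.99, -6.33 and -5.77 in naive cells. Since the probe sets differ in how strongly they respond, the sign of this difference does not say which transcript is more abundant, but its change from subset to subset does show that the genes changed unequally. The mean was 11.70 higher in PD-1hi than in naive cells, 8.45 higher in PD-1int and 2.95 higher in memory than in naive. Effector arrays did not overlap with memory or naive arrays, and PD-1hi overlapped with PD-1int through PD-1hi replicate 2.

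In subset means, most of the step from naive to memory came from Tigit, and most of the step from PD-1int to PD-1hi from Cd226. Memory against naive moved Tigit by 2.26 and Cd226 by -0.69, whereas PD-1hi against PD-1int moved Tigit by 0.79 and Cd226 by -2.46. For that last value the arrays of the 2 subsets overlapped, and the call depended on the arrays and settings. Tigit minus Cd96 had a much smaller spread: it was 0.34 ± 0.07 in PD-1hi, -0.48 ± 0.13 in PD-1int, -3.81 ± 0.24 in memory and -6.52 ± 0.24 in naive cells (SD, n = 4), with no overlap between any 2 subsets. Cd96 minus Cd226 was 5.30 ± 1.61 in PD-1hi, 2.88 ± 1.05 in PD-1int, 0.71 ± 0.18 in memory and 0.46 ± 0.16 in naive cells. Memory and naive arrays overlapped in this last difference.

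**Figure D3:**
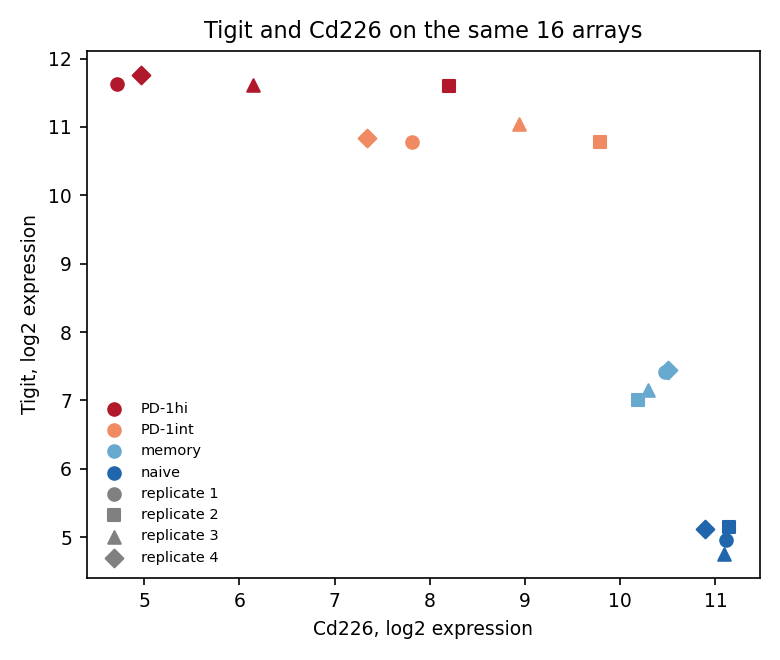
Log2 expression of Tigit (y axis) against that of Cd226 (x axis) on each of the 16 arrays, coloured by subset and with marker shapes for the replicate number. The subsets occupy separate places, and within PD-1hi and PD-1int the arrays spread along Cd226 (4.72 to 8.20 and 7.34 to 9.79) at nearly constant Tigit (11.60 to 11.76 and 10.78 to 11.04).

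Of the 6 ligand genes listed, 1 rose in PD-1hi against naive (27.1% of all genes passed there), against memory (21.9%) and against PD-1int (3.31%), and none passed by limma in the other 3 comparisons. The median log2 difference of the 6 in PD-1hi against naive was 0.01, and that of all genes was -0.01. The gene that rose was Nectin1, whose product is an adhesion molecule and a ligand of mouse CD96. It had 7.85, 7.61, 8.22 and 7.73 in PD-1hi replicates 1 to 4, and 7.44, 7.09, 7.34 and 7.42 in PD-1int. It had 7.16, 7.16, 7.48 and 7.23 in memory, and 6.85, 7.14, 7.15 and 6.74 in naive cells. All PD-1hi arrays lay above all arrays of the other subsets.

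Nectin1 rose in PD-1hi by 0.88 ± 0.13 against naive (limma adjusted p = 3.44e-05) and by 0.60 ± 0.13 against memory (limma adjusted p = 0.00219). The rise over PD-1int was 0.53 ± 0.13 (limma adjusted p = 0.0315). It missed the threshold without PD-1int replicate 2 (0.0998), 3 (0.0655) or 4 (0.0505), without PD-1hi replicate 1 (0.0681) or 3 (0.0855), and in a fit of those 8 arrays alone (0.0678). Pvr, which encodes CD155, averaged 7.42 ± 0.08 in PD-1hi, 7.74 ± 0.15 in PD-1int, 7.71 ± 0.32 in memory and 7.31 ± 0.36 in naive cells (SD, n = 4), and passed in no comparison. Nectin2, which encodes CD112, averaged 6.59 ± 0.13, 6.62 ± 0.07, 6.74 ± 0.17 and 6.64 ± 0.13 in the same subsets. Nectin3 and Nectin4, further nectins, and Cadm1, the ligand of CRTAM, ranged over all 16 arrays from 4.88 to 5.30, 6.31 to 6.85 and 5.59 to 5.99.

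Crtam was the only further receptor of the family with a probe set of its own, since none was annotated to Pvrig alone. Its product is induced on activated CD8 T cells and binds the cell adhesion molecule encoded by Cadm1. It had 7.38, 7.77, 7.74 and 6.80 in PD-1hi replicates 1 to 4, and 9.62, 8.80, 9.03 and 9.14 in PD-1int. It had 9.96, 10.06, 9.80 and 9.995 in memory, and 8.98, 8.84, 8.82 and 9.13 in naive cells. PD-1hi lay below every other subset and memory above, while PD-1int overlapped with naive. Crtam fell in PD-1hi by -1.52 ± 0.18 against naive (limma adjusted p = 3.26e-06), by -2.53 ± 0.18 against memory (1.02e-08) and by -1.73 ± 0.18 against PD-1int (1.90e-05). In memory it rose over naive by 1.01 ± 0.18 (limma adjusted p = 9.12e-04), and in PD-1int it fell against memory by -0.81 ± 0.18 (0.00434) and did not pass against naive (0.511). Like Cd226, it was thus lowest in PD-1hi, but unlike Cd226 it was highest in memory.

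Of 14 genes for signalling partners of the receptors, 10 rose and 2 fell in PD-1hi against naive, where 27.1% of all genes passed, and likewise 10 and 2 in PD-1int (22.7% of all genes), while 7 rose and 1 fell in memory (11.7%). Against memory, 9 rose and 3 fell in PD-1hi (21.9%), and 9 rose and 1 fell in PD-1int (16.2%). In PD-1hi against PD-1int 1 rose and 1 fell (3.31%). The fall in memory against naive, that of Prkcq (limma adjusted p = 0.0428), was lost in 9 of 16 fits that left out 1 array, and the rise of Plcg2 there (0.0444) in 11 of 16. The fall of Prkcq in PD-1int against naive was lost in 4 of 16. The median log2 difference of the 14 was 0.67 in PD-1hi against naive, beside -0.01 for all genes, and -0.04 in PD-1hi against PD-1int, beside 0.01. The list was chosen with earlier results of these data known, and most of its genes are bright, while all genes include dim ones. The shares and medians are thus a description only.

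The LFA-1 chains and FYN, which act with CD226, were among those that rose. Itgal, the alpha chain of LFA-1, averaged 11.90 ± 0.05 in PD-1hi, 11.93 ± 0.07 in PD-1int, 11.42 ± 0.06 in memory and 10.72 ± 0.09 in naive cells (SD, n = 4). Its rise over naive was 1.18 ± 0.07 in PD-1hi, 1.21 ± 0.07 in PD-1int and 0.70 ± 0.07 in memory (SE). Itgb2, the beta chain, rose over naive by 1.20 ± 0.08, 1.26 ± 0.08 and 0.63 ± 0.08 in the same subsets, and Fyn by 1.11 ± 0.06, 1.10 ± 0.06 and 0.59 ± 0.06. None of these 3 genes passed in PD-1hi against PD-1int. In the effector subsets, where Cd226 fell, the genes of its partner integrin and kinase were higher than in naive cells.

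Ptpn6, which encodes the phosphatase SHP-1, was, like Cd226, lower in PD-1hi than in PD-1int, and varied less between arrays. It had 9.49, 9.44, 9.38 and 9.37 in PD-1hi replicates 1 to 4, and 10.51, 10.15, 10.21 and 10.27 in PD-1int. It had 11.75, 11.58, 11.58 and 11.62 in memory, and between 10.80 and 11.07 in naive cells. The 4 subsets did not overlap, with memory highest and PD-1hi lowest. Ptpn6 fell in PD-1hi by -1.54 ± 0.09 against naive (limma adjusted p = 1.53e-10), by -2.21 ± 0.09 against memory (4.49e-12) and by -0.86 ± 0.09 against PD-1int (1.11e-05). PD-1int fell against naive by -0.67 ± 0.09, and memory rose over naive by 0.67 ± 0.09.

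Cblb, which encodes a ubiquitin ligase that restrains T-cell activation, was the partner gene that rose in PD-1hi over PD-1int. It averaged 11.77 ± 0.14 in PD-1hi, 11.40 ± 0.13 in PD-1int, 10.99 ± 0.05 in memory and 10.98 ± 0.06 in naive cells (SD, n = 4). The rise over PD-1int was 0.37 ± 0.08 (limma adjusted p = 0.0181), and it missed the threshold without PD-1int replicate 1 (0.059) or 2 (0.0629), without PD-1hi replicate 4 (0.0703) and in a fit of those 8 arrays alone (0.0849). Prkcq, which encodes a protein kinase C of the T-cell synapse, and Vav1, a guanine nucleotide exchange factor, had differences of -0.34 ± 0.09 each in PD-1hi against PD-1int and did not pass (limma adjusted p = 0.0581 and 0.0587). Both passed there without the 40% dimmest genes (0.0369 and 0.0378).

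**Figure D4:**
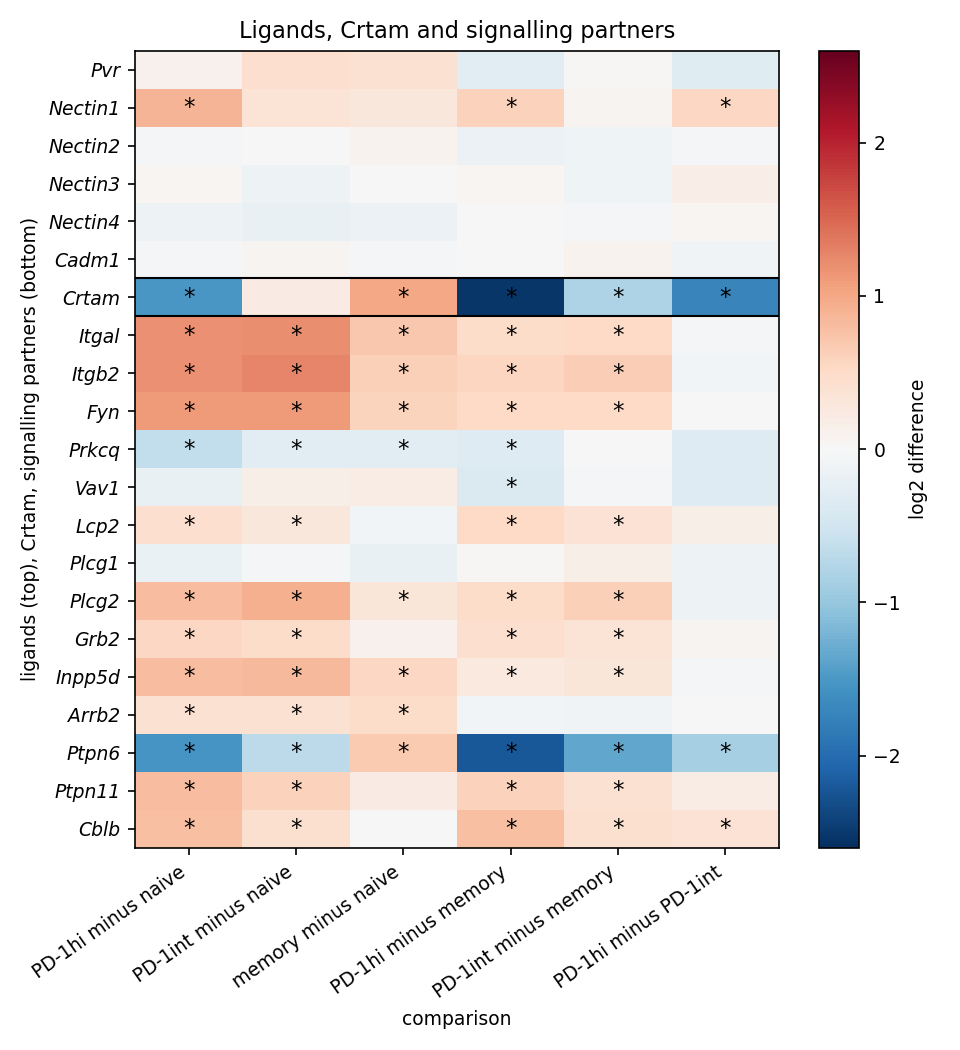
Log2 differences (colour) of 6 ligand genes, Crtam and 14 signalling partner genes (y axis) in the 6 pairs of subsets (x axis); asterisks mark a limma adjusted p under 0.05. Most signalling partners are higher in effector than in naive cells, Ptpn6 and Crtam are lowest in PD-1hi, and 4 genes carry a mark in PD-1hi against PD-1int.

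Each receptor gene has other genes of like profile, found by the root mean square difference of log2 values over the 16 arrays after each gene was centred on its mean. Nearest to Tigit were Car5b, a mitochondrial carbonic anhydrase, at 0.48, the granzyme gene Gzmb at 0.53, the chemokine gene Ccl3 at 0.56, and the granzyme genes Gzmk at 0.58 and Gzma at 0.68. Their Pearson r with Tigit over 16 arrays lay between 0.975 and 0.988, a description of arrays that fall into 4 subsets. Tigit itself had an SD of 2.79 over the arrays. Their log2 differences in PD-1hi minus PD-1int, from genes likewise chosen for their likeness, lay between -0.43 (Gzma) and 1.15 (Ccl3).

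The genes nearest to Cd226 lay farther away. They were the Toll-like receptor gene Tlr1 at 0.94, Satb1, a chromatin organiser, at 0.96, the embigin gene Emb at 0.97, Nt5e, which encodes the ectoenzyme CD73, at 0.98, and Aff3 at 0.99. They were chosen on these arrays for their likeness to Cd226, which fixes their direction, so what follows is a description. In PD-1hi minus naive their log2 differences lay between -4.21 (Nt5e) and -3.06 (Emb), and in PD-1hi minus PD-1int between -1.81 (Nt5e) and -0.82 (Satb1). Over the 16 arrays Pearson r with Cd226 was highest for Emb (0.963) and lowest for Nt5e (0.891). The nearest genes to Cd96, namely Bsdc1, Pudp, Ccni, Psmb9 and Mier1, lay within 0.08 to 0.10 of it. Cd96 had an SD of only 0.178 over the 16 arrays, so these are other genes with small differences.

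Markers of other cells that can carry these receptors were checked, since natural killer cells express all 3, regulatory T cells express TIGIT, and platelets express CD226. Of 6 natural killer and innate-like markers, 3 rose in memory against naive (Klrb1c, Tyrobp and Fcer1g), 1 in PD-1int (Tyrobp) and 0 in PD-1hi by limma, beside 11.7%, 22.7% and 27.1% of all genes in those comparisons. Their summed level, on the log2 scale, was 8.93 to 9.19 in PD-1hi, 9.07 to 9.17 in PD-1int, 9.30 to 9.52 in memory and 8.91 to 9.05 in naive cells. Ncr1, which defines natural killer cells, averaged 5.84 in memory and 5.84 in naive cells. The part of these markers in the rise of Tigit in memory was not tested.

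Of 5 CD4 and regulatory T-cell markers, 1 rose in PD-1hi against naive (27.1% of all genes passed there), namely Zbtb7b. In PD-1int (22.7%) and in memory (11.7%) against naive, 1 rose and 1 fell. Zbtb7b averaged 7.39 in PD-1hi, 7.37 in PD-1int, 7.40 in memory and 7.11 in naive cells. The summed level of the 5 markers was 9.04 to 9.24 in PD-1hi, 8.84 to 8.90 in PD-1int, 8.78 to 8.89 in memory and 8.90 to 9.06 in naive cells. Ikzf4, which encodes the transcription factor Eos, averaged 7.80 in PD-1hi, 7.09 in PD-1int, 6.90 in memory and 7.64 in naive cells. In PD-1hi it did not pass against naive. It rose in PD-1hi over PD-1int (0.71 ± 0.14) and over memory (0.90 ± 0.14), whose means both lay below that of naive cells. The part of these markers in the Tigit differences was not tested. Foxp3, which defines regulatory T cells, averaged 6.17 ± 0.11 in PD-1hi, 6.23 ± 0.21 in PD-1int, 6.30 ± 0.08 in memory and 6.39 ± 0.12 in naive cells (SD, n = 4). Of 5 platelet markers, Ppbp alone passed in PD-1hi against naive (27.1% of all genes), where it rose by 1.06 ± 0.25. The summed level of the 5 was 9.77 to 9.87 in PD-1hi, 9.54 to 9.82 in PD-1int, 9.51 to 9.76 in memory and 9.44 to 9.85 in naive cells. Of 10 myeloid markers, 3 rose in PD-1hi against naive (Cd68, Itgam and Cst3), beside 27.1% of all genes that passed. The other 7 did not pass there, among them Csf1r (6.58 in PD-1hi, 6.33 in naive) and Cd14 (5.07 and 5.04). In PD-1int 3 of the 10 also rose against naive (22.7%), and in memory 1 did (11.7%). Against memory 3 rose in PD-1hi (21.9%) and 2 in PD-1int (16.2%), and none passed in PD-1hi against PD-1int. The summed level of the 10 was 11.94 to 12.30 in PD-1hi, 11.99 to 12.17 in PD-1int, 11.29 to 11.36 in memory and 10.91 to 11.16 in naive cells. Cd68 and Cst3, at 10.99 and 10.93 in PD-1hi, weigh most in that sum there. Of 10 B-cell and CLL markers, 2 passed in PD-1hi (27.1% of all genes) and in PD-1int (22.7%) against naive: Cd22 rose and Cd79b fell. Cd22 alone passed in memory against naive (11.7%), where it rose by 3.22 ± 0.12. The summed level of the 10 was 9.28 to 9.54 in PD-1hi, 9.56 to 9.80 in PD-1int, 10.31 to 10.47 in memory and 9.43 to 9.55 in naive cells. Cd22, at 9.50 in memory, weighs most in that sum there. The part of the myeloid, B-cell and platelet markers in the receptor differences was not tested. Of 7 CD8 T-cell genes measured, 4 passed in PD-1hi against naive, where 27.1% of all genes did. Cd8b1 fell there by -0.33 and Cd3e, Cd3g and Cd2 rose, while Cd8a differed by -0.19 and did not pass. Likewise 4 passed in PD-1int against naive (22.7%), and against memory in PD-1hi (21.9%) and in PD-1int (16.2%). None passed in memory against naive or in PD-1hi against PD-1int.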

How the data were processed

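The authors deposited values, read here as log2 from their range, for each probe set of an Affymetrix Mouse Gene array. Affymetrix Power Tools made them, per the submitters' processing notes. Its version and the way probes were summarised were not given in the sources used here. Of 41345 probe sets, 23521 carry 1 gene symbol in the platform annotation, and the brightest over 16 arrays stood for each of 22180 genes. Symbols were matched to RefSeq through Entrez identifiers for 23328 probe sets. No dim gene was left out.

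All 16 arrays were fitted with limma 3.58.1 (in R 4.3.3), with 1 mean for each subset, without a block, and moderated by eBayes, and p-values were adjusted by Benjamini-Hochberg over all genes of each of 6 comparisons, with a threshold of 0.05. The number of arrays limits the precision. The pipeline was tested on simulated data. The members and gene lists were chosen with earlier results of these data known. Genes named are the 3 receptors, all listed ligands and further receptors, the 4 signalling partners with the smallest p in PD-1hi against naive and against PD-1int, sort genes, the 5 genes nearest to each receptor (predicted loci, small RNAs and receptor segments left out), and other-cell markers that passed or define a cell. Alternatives were a replicate block, the 8 arrays compared, a filter on the 40% dimmest genes, the mean of probe sets, quantile normalization, median centring, trend and robust eBayes, array weights and leaving out each array.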

Additional observations from a re-analysis of the deposited data

Results flagged for a closer look

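In 180 groups of 4 arrays (45 genes in 4 subsets), 5 had an array far from the other 3, its gap to the nearest exceeding the share of the group's range that Dixon's test allows, and chance alone gives about 1 such group in 20. None of the 5 was Tigit, Cd226 or Cd96. Fyn was highest in memory replicate 2 (11.37, the next array at 11.33). Ptpn11, a phosphatase gene, was lowest in naive replicate 2 (9.20, the next at 9.57). Satb1 was lowest in PD-1int replicate 1 (7.70, the next at 8.74). Ccni was highest in naive replicate 3 (9.58, the next at 9.38). Slc28a2b, a nucleoside transporter gene, was highest in PD-1hi replicate 2 (7.33, the next at 6.29).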

How the results depend on the processing

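All 6 Tigit calls kept their direction and side of the threshold under all alternatives tried. The mean of probe sets is no check on the 3 receptors, since each has 1 probe set and its values stay the same. Cd226 in memory against naive (-0.69) passed in the fit of 8 arrays alone, where Cd226 in PD-1hi against PD-1int (-2.46) and Cd96 in PD-1hi against naive (-0.20) did not pass and 2 pathway genes, not 4, passed in PD-1hi against PD-1int. With trend and robust settings Cd226 in PD-1int against memory (-1.90) and in PD-1hi against PD-1int (-2.46) did not pass, and Cd96 in PD-1int against naive (-0.17) did, as it did after quantile normalization (-0.21). Array weights (-0.20) and the replicate block (-0.20) ended the Cd96 call in PD-1hi against naive. Without PD-1int and PD-1hi replicate 2 together, an alternative chosen after the data were seen, Cd96 did not pass in PD-1hi against naive (-0.20) or memory (0.24), Cd226 kept its calls, and 2 pathway genes passed in PD-1hi against PD-1int. Leaving out 1 array at a time ended or turned calls of the receptors and of the pathway count, with -0.23 to -0.17 (Cd96, PD-1hi against naive), 0.22 to 0.27 (Cd96, PD-1hi against memory), 0.25 to 0.32 (Cd96, PD-1int against memory), -0.079 to 0.0012 (Cd96, PD-1hi against PD-1int, turned without PD-1hi replicate 3), -2.34 to -1.52 (Cd226, PD-1int against memory), -3.19 to -2.02 (Cd226, PD-1hi against PD-1int) and 2 to 5 pathway genes (PD-1hi against PD-1int). Among other pathway genes it ended the calls of Prkcq in memory against naive (9 of 16 fits), in PD-1int against naive (4) and in PD-1hi against memory (1), of Plcg2 in memory against naive (11), and of Nectin1 (5) and Cblb (3) in PD-1hi against PD-1int, and it brought Prkcq (3) and Vav1 (2) past the threshold there. Over all genes that comparison had 734 calls, 470 without PD-1int replicate 1, 474 without PD-1hi replicate 4 and 467 without replicate 2 of both effector subsets. The causes of these changes were not tested. The correlation of deviations of same-numbered arrays over all genes lay between -0.05 and 0.15, with 2 of 24 over 0.1. The main fit did not pair them. In each comparison 4 to 6 of 8 arrays, not all, correlated best with their own number, where a random order would give 2, a hint from the data that the labels do not settle. The replicate block gave 748 calls in PD-1hi against PD-1int and ended no other call of the 3 receptors.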

Other observations

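Genes whose array-to-array differences within the effector subsets resemble those of Cd226 were looked for after the data were seen, so the choice supports nothing further. Of 435 genes with a within-subset SD of at least 0.4 over the 8 effector arrays, 3 had a Pearson r with Cd226 of at least 0.9 in size. It was computed on deviations from the subset means of 8 arrays that share subsets and numbers. How many of the 435 would reach this r by chance was not tested. Ly6c2, which encodes the surface protein Ly6C, had the highest (0.967). It had 8.96, 10.87, 10.12 and 8.98 in PD-1hi replicates 1 to 4, and 11.92, 12.66, 12.19 and 11.48 in PD-1int. Replicate 2 was highest and replicate 3 next in each, as for Cd226. Ly6c2 averaged 13.35 ± 0.11 in memory and 12.21 ± 0.12 in naive cells (SD, n = 4).

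Slc28a2b also followed Cd226 (0.911), with 6.25, 7.33, 6.29 and 6.10 in PD-1hi and 6.45, 6.78, 6.93 and 6.31 in PD-1int. Phlda3, which encodes an inhibitor of AKT induced by p53, ran against it (-0.914), with 7.93, 7.23, 7.87 and 8.41 in PD-1hi and 7.66, 7.14, 7.47 and 7.92 in PD-1int. Of the genes behind the gates, Il7r had an r of 0.736, Cd44 of -0.619 and Pdcd1 of -0.431 with Cd226 on the same 8 arrays.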
